A study of Mus musculus with 24 samples.

Results

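The 10 genes described here are the core of the mammalian circadian clock and one of its outputs: Arntl, Clock, Npas2, Per1, Per2, Per3, Cry1, Cry2, Nr1d1 and Dbp. They were chosen by name, as every probe whose gene name equalled one of the 10 symbols, out of 27962 gene names on the array. All 10 genes had a probe, and together they had 18 of the 41174 probes. The probe with the highest mean sample signal stood for each gene, and the other 8 probes are given where they bear on a result.

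The clock is a loop of transcription factors that runs in nearly every cell. The proteins of Arntl (also called Bmal1) and Clock, or its close relative Npas2, bind E-box sequences together and switch on the Per and Cry genes, whose products then block them, so that mRNA levels rise and fall over the day. The same activators switch on Nr1d1 (REV-ERB alpha), which represses Arntl, and Dbp, a transcription factor that carries the rhythm to metabolic genes. In mouse liver and gut, Dbp, Per and Nr1d1 mRNA is therefore abundant when Arntl mRNA is scarce.

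Liver and colon were taken at 12 weeks of age from 12 female wild type C57BL/6 mice, whose mothers had all eaten a fat-rich diet poor in both selenium and folate (HF-low) before mating and through gestation and lactation. After weaning, 6 offspring stayed on that diet (HF-low-low) and 6 were moved to a fat-rich diet that held enough of both nutrients (HF-low-suf). No group without the high-fat diet or with a sufficient maternal diet was used here. The mice were fasted and re-fed before tissue collection, and the hour at which each mouse was killed is not given in the sources used here, so whether the mice differed in it was not tested. Each of the 24 RNA samples was labelled with Cy3 and hybridised against 1 Cy5 reference, by the labels an equimolar pool of RNA from both tissues of all mice. Values are therefore log2 ratios to that pool, replicates are separate mice, and a mouse is named below by its diet and its replicate number.

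The 24 arrays lay on 6 slides, each with 1 array of each of the 4 groups and with liver and colon of the same mouse side by side. Slides 1 to 3 were scanned on one day and slides 4 to 6 on another. The median Cy5 signal was 5.43 to 7.62 times background on 22 arrays, but 18.2 times on colon HF-low-suf replicate 5 and 12.7 times on liver HF-low-suf replicate 4. The latter also lost 8.75% of its spots as outliers, against at most 0.768% on the others. The mean log2 ratio of 5 hepatocyte markers was between 1.39 and 2.16 in liver and between -3.90 and -3.40 in colon, and that of 6 colon epithelial markers between 0.31 and 1.09 in colon and between -4.43 and -3.17 in liver. The 5 fat cell markers reached 3.42 in liver HF-low-suf replicate 1 against a median of -1.10 in its group, and the 5 skeletal muscle markers reached -2.91 in liver HF-low-suf replicate 2 against a median of -4.31. In colon the fat cell markers were high, with a median of 3.21 in HF-low-low and 3.03 in HF-low-suf, where the lowest colon had 1.39. The muscle marker mean lay below the pool on all 24 arrays, from -5.53 to -2.91, whereas a pool of these 24 samples alone would lie within their range, so the content of the pool is not fully known. All samples shared the pool, and the comparisons below are differences between samples.

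Several of these genes are known to be controlled through short promoter sequences, so the start-site regions of 3 of those described most closely are shown. RefSeq start-site windows (build GRCm38.p6, 250 bases before to 50 after the start) were matched for 9 of the 10 genes, with 13 windows in all. The motifs searched on both strands were the E-box CACGTG, its variant CACGTT, the D-box TTATGTAA or TTACGTAA that Dbp protein binds, and the core TAGGTCA that the ROR activators and the REV-ERB repressors compete for, and no stretch of letters can match more than 1 of them. The E-box lay in 1 of the 2 Per1 windows and in the Cry1 window, against 7.15% of all 32851 windows. The variant lay in those of Cry1, Cry2 and Nr1d1, against 4.68%. The D-box lay in the Per3 window in 2 copies, against 1.06% of all windows with at least 1 copy. The ROR core lay in 1 of the Arntl windows, against 2.61%. No motif was found in the Dbp, Clock and Npas2 windows. A match is a description of the letters in the window and not a shown site. The matches stand in capitals: the ROR core from base 31 after the Arntl start, the E-box 166 bases before the Per1 start, and the E-box variant, read on the opposite strand, 28 bases before the Nr1d1 start.
Arntl, chr7:113207261-113207560, plus strand: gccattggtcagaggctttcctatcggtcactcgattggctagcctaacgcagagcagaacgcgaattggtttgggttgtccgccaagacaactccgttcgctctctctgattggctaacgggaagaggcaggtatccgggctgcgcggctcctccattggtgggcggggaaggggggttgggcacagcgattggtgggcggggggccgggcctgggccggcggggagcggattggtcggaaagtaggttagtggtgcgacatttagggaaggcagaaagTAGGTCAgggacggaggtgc
Per1, chr11:69098699-69098998, plus strand: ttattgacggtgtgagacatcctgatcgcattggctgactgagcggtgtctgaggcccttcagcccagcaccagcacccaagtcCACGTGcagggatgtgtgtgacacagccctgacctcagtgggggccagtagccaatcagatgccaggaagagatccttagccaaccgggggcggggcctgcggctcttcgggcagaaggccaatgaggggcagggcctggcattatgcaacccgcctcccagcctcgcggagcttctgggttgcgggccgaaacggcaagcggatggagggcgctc
Nr1d1, chr11:98775328-98775627, minus strand: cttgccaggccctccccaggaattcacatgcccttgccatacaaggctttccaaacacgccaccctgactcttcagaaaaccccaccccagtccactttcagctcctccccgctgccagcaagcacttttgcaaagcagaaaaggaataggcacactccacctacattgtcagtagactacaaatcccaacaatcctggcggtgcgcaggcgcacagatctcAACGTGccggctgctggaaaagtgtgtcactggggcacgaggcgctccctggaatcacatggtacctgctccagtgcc

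The members differed in how well they were measured. Arntl, Clock and Dbp were well above background in the sample channel on all 24 arrays. Per1, Cry2 and Nr1d1 were so on all 12 colon arrays and on 9, 11 and 9 of the 12 liver arrays. Per2 was well above background on 11 colon and 10 liver arrays. Cry1 passed on only 3 arrays of each tissue, Npas2 on 1 of each, and Per3 on 2 colon and 1 liver arrays, so the values of these 3 genes say little. No member was saturated. The plot of members by group marks these arrays.

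**Figure D1:**
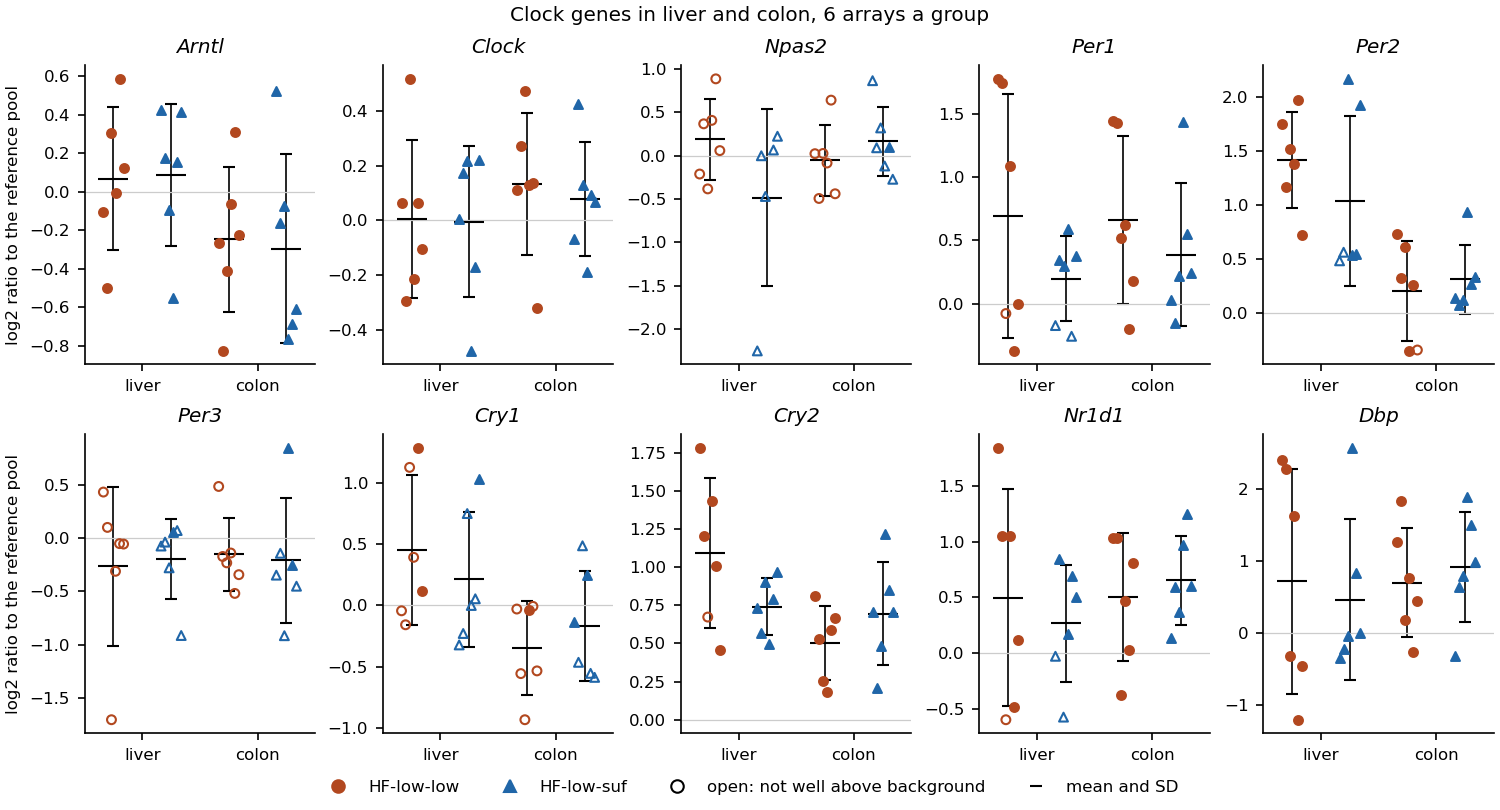
Log2 ratio to the reference pool (y axis, a separate scale for each gene) of the main probe of each of the 10 clock genes in liver and colon of HF-low-low (circles) and HF-low-suf (triangles) mice, with open symbols where the probe was not well above background and bars for mean and SD (n = 6, or 5 for Npas2 in liver HF-low-suf). The groups of the 2 diets overlapped for every gene, and the Dbp values in liver ran from -1.21 to 2.58.

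Between liver and colon, Per2 was higher in liver, and Cry1 passed the same threshold on a probe above background on only 6 of 24 arrays. With limma over all 24 arrays and the mouse as a random block, these 2 of the 10 genes passed an adjusted P below 0.05 with a fold change above 1.5. Over the whole array 23.6% of 41174 probes passed, 11.4% as higher in liver and 12.2% as higher in colon, and with 10 genes nothing particular to the clock is read from the count. The median log2 difference of the 10 genes was -0.07, beside 0.02 over all probes. In whole tissue, a difference in the number of cells of a type cannot be told apart from a difference in RNA per cell.

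Per2, a repressor in the negative limb, ran from 0.48 through a median of 1.27 to 2.17 in the 12 livers and from -0.35 through 0.26 to 0.93 in the 12 colons. It was higher in the liver of 11 of the 12 mice, although the ranges overlapped. The log2 difference was 0.97 ± 0.19 (SE, as are all errors after ± below), a 1.96-fold difference (adjusted P = 9.72e-05, limma; exact sign-flip permutation P = 0.00195). The second Per2 probe, well above background on 12 of 24 arrays, gave 0.42 ± 0.13. Cry1, another repressor, differed by 0.59 ± 0.18 (adjusted P = 0.00905, limma), but at 1.51-fold it stood at the edge of the threshold and on a probe close to background, and it no longer passed without HF-low-low replicate 3 (0.47) or 5 (0.54), without HF-low-suf replicate 5 (0.57) or 6 (0.47), or without the 2 arrays with a bright reference (0.58). The second Cry1 probe, above background on no colon and 1 liver array, gave 0.38 (adjusted P = 0.221, limma).

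Arntl, the partner of Clock, was 0.35 ± 0.14 higher in liver (adjusted P = 0.0518, limma) and higher in the liver of 10 of 12 mice, and Cry2 was 0.32 ± 0.12 higher (adjusted P = 0.0456, limma), below the 1.5-fold threshold. Cry2 passed, at 0.64, with the processed signals of the scanner software, and its second probe, above background on 1 colon array, gave -0.0015. The Arntl difference was -0.077 where arrays were median centred in place of loess. The remaining 6 genes did not pass. The log2 difference of Dbp was -0.22 ± 0.35, with a 95% interval of -0.94 to 0.51, Per1 -0.08 ± 0.22, Nr1d1 -0.19 ± 0.22, Clock -0.11 ± 0.10, Npas2 -0.21 ± 0.22 and Per3 -0.05 ± 0.18. For these genes the spread between mice in each tissue was larger than the difference between tissues.

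Between the diets, no clock gene passed the threshold in either tissue. In liver, 0 of the 10 genes passed an unadjusted P below 0.01 with a fold change above 1.5, beside 0.117% of all probes (48 of 41174). In colon it was 0 of 10 beside 0.168% (69 probes). No member had an unadjusted P below 0.05 (limma), and no probe of the whole array passed an adjusted P below 0.05 in either tissue, while 877 probes in liver and 1228 in colon had an unadjusted P below 0.05. The smallest P of a member was 0.106 in liver, for Cry2, and 0.284 in colon, also for Cry2. The median log2 difference, HF-low-suf minus HF-low-low, of the 10 genes was -0.25 in liver and 0.13 in colon, beside 0.01 and -0.01 over all probes. These medians take in the poorly measured Npas2, Per3 and Cry1, and a shift of the set was not tested.

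The estimates were wide because mice of the same diet differed greatly. Dbp, which had the widest range, ran from -1.21 through a median of 0.65 to 2.40 in HF-low-low liver and from -0.35 through -0.03 to 2.58 in HF-low-suf liver. High and low livers occurred under both diets. The diet difference was -0.25 ± 0.67 (SE), with a 95% interval of -1.69 to 1.18 (exact permutation P = 0.725, two-sided). In colon, Dbp ran from -0.27 through 0.60 to 1.83 in HF-low-low and from -0.33 through 0.89 to 1.89 in HF-low-suf, a difference of 0.21 ± 0.36 with an interval of -0.56 to 0.99 (exact permutation P = 0.626).

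Per1 in liver ran from -0.37 through 0.54 to 1.77 in HF-low-low and from -0.26 through 0.32 to 0.59 in HF-low-suf. The 3 highest livers were all HF-low-low, yet the rest of both groups overlapped, and the difference of -0.49 ± 0.36 did not pass (interval -1.27 to 0.28, exact permutation P = 0.245). In colon it was -0.28 ± 0.30 (exact permutation P = 0.448). Cry2 in liver ran from 0.45 through 1.11 to 1.78 in HF-low-low and from 0.49 through 0.76 to 0.97 in HF-low-suf, a difference of -0.35 ± 0.20 (interval -0.79 to 0.08, exact permutation P = 0.136). In colon Cry2 differed by 0.19 ± 0.17 (exact permutation P = 0.299).

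Per2 in liver ran from 0.72 through 1.45 to 1.97 in HF-low-low and from 0.48 through 0.55 to 2.17 in HF-low-suf. The 4 lowest livers were all HF-low-suf, but 2 of these (0.48 and 0.56) were not well above background and 2 of the 3 highest were HF-low-suf too, and the difference was -0.38 ± 0.32 (exact permutation P = 0.307). Nr1d1 in liver ran from -0.60 through 0.58 to 1.84 in HF-low-low and from -0.58 through 0.34 to 0.85 in HF-low-suf, a difference of -0.23 ± 0.39 (exact permutation P = 0.626). The lowest Nr1d1 value of each diet, and that of Per1 in HF-low-suf, was not well above background. Arntl in liver ran from -0.50 through 0.06 to 0.59 in HF-low-low and from -0.55 through 0.17 to 0.42 in HF-low-suf, and these groups overlapped nearly in full.

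The diet difference in liver was 0.02 ± 0.20 for Arntl and -0.01 ± 0.17 for Clock. In colon the differences were -0.05 ± 0.23 for Arntl, -0.06 ± 0.15 for Clock, 0.11 ± 0.21 for Per2 and 0.15 ± 0.25 for Nr1d1. The 95% intervals of Arntl, -0.41 to 0.45 in liver and -0.53 to 0.43 in colon, and of Clock, -0.37 to 0.35 and -0.38 to 0.26, left room for changes of up to about these sizes. Cry1, close to background, differed by -0.24 ± 0.30 in liver and 0.18 ± 0.22 in colon. Npas2 and Per3 were not well above background on any HF-low-low array of either tissue, so their diet differences are given no size.

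The effect of the diet in liver was also compared with that in colon. None of the 10 genes passed an unadjusted P below 0.01 with a fold change above 1.5, beside 1.25% of all probes, and no probe passed an adjusted P below 0.05 while 2646 had an unadjusted P below 0.05 (limma). Cry2 came closest, with a difference between the effects of -0.54 ± 0.25 (P = 0.0395, adjusted P = 0.754, limma; exact permutation P = 0.0714). Without HF-low-low replicate 6 it was -0.70 ± 0.24 and passed. Liver HF-low-suf replicate 4, the array with many outlier spots, had the lowest Cry2 value of its group, 0.49, while the colon of the same mouse had the highest, 1.22. Without that mouse the difference was -0.39 ± 0.25 and did not.

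Several clock genes varied widely between mice of the same diet. Within diets, the SD of Dbp was 1.36 in liver, wider than in 99.7% of the 9665 probes that were well above background on all 12 liver arrays, whose median SD was 0.26. In colon its SD was 0.76, wider than in 98.9% of 13795 such probes. Per1 in colon, with an SD of 0.61, exceeded 97.2%, Nr1d1 (0.50) exceeded 93.3% and Arntl (0.44) 88.9%. Arntl in liver (0.37) exceeded 77.0%. Clock, whose mRNA is known to cycle little, was ordinary, at 57.0% in liver and 39.8% in colon. Between the lowest and the highest mouse, Dbp spanned 13.8-fold in liver and 4.64-fold in colon, Per1 4.42-fold and 3.12-fold, Arntl 2.20-fold and 2.55-fold, and Clock 1.99-fold and 1.73-fold. Nr1d1 spanned 3.08-fold in colon, and in liver its lowest value was not well above background.

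The liver and the colon of the same mouse tended to hold high or low Dbp together. The livers with the most Dbp were HF-low-suf replicate 4 (2.58) and HF-low-low replicates 1 (2.40), 2 (2.28) and 4 (1.62), followed by HF-low-suf replicate 5 (0.84), and the other 7 lay between -1.21 and -0.01. Of these 5 mice, 4 also had the 4 highest colons, at 1.26 to 1.89. The mouse with the lowest liver, HF-low-low replicate 5, had the second lowest colon, -0.27. Over the 12 mice Pearson's r was 0.84 (permutation P = 0.00089, two-sided) and Spearman's rho 0.90 (permutation P = 0.00015). Without the 2 mice farthest from the liver median r was 0.80 (permutation P = 0.00638, 10 mice). It was 0.92 within HF-low-low (exact permutation P = 0.00972, 6 mice), 0.82 within HF-low-suf (exact P = 0.05), 0.85 among the mice of the first scan day (exact P = 0.00833) and 0.84 among those of the second (exact P = 0.0375). A log2 unit more in liver went with 0.47 more in colon. The mean of each of the 6 cell type marker lists had an r with Dbp between -0.26 and 0.44 in liver and between -0.21 and 0.18 in colon over the 12 mice, and their part in the result was not tested.

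**Figure D2:**
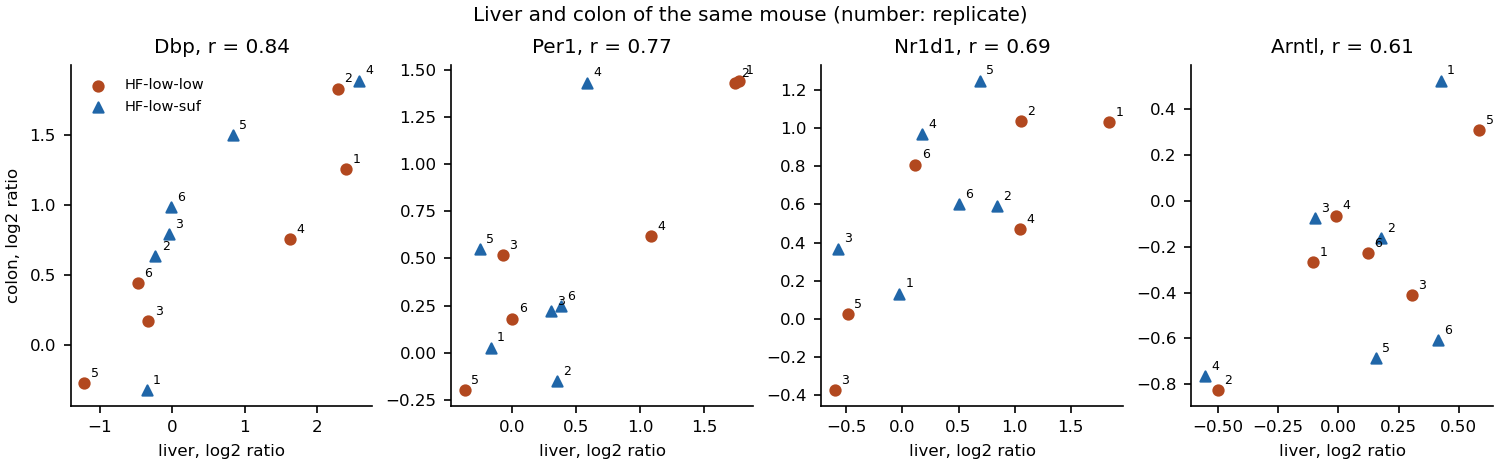
Log2 ratio in colon (y axis) against log2 ratio in liver (x axis) of the same mouse for Dbp, Per1, Nr1d1 and Arntl, 12 mice, with circles for HF-low-low, triangles for HF-low-suf and the replicate number beside each point. All 4 genes leaned the same way, from r = 0.61 for Arntl to 0.84 for Dbp, and mice of both diets lay along the range.

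Per1, Nr1d1 and Arntl showed the same tendency, less firmly. For Per1, r was 0.77 (permutation P = 0.00501) and rho 0.71 (permutation P = 0.0117). It was 0.46 (permutation P = 0.179) without HF-low-low replicates 1 and 2, whose livers (1.77 and 1.74) and colons (1.44 and 1.43) were both high, so the relation rested in large part on these mice. For Nr1d1, r was 0.69 (permutation P = 0.0127) and rho 0.73 (permutation P = 0.00985), and 0.57 without the 2 farthest mice (permutation P = 0.09). The other 2 Nr1d1 probes, above background on at most 4 arrays of a tissue, gave -0.13 and 0.34. For Arntl, r was 0.61 (permutation P = 0.0344) and rho 0.54 (permutation P = 0.0739), and it was 0.29 (permutation P = 0.413) without HF-low-low replicate 2 and HF-low-suf replicate 4, which had the lowest Arntl in both tissues. Within HF-low-low, r was 0.94 for Per1 (exact P = 0.00417, 6 mice), 0.82 for Nr1d1 (exact P = 0.0542) and 0.82 for Arntl (exact P = 0.0625), and within HF-low-suf 0.36, 0.54 and 0.46 (exact P = 0.531, 0.282 and 0.365). Whether the diets differed in r was not tested.

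The remaining 6 genes did not reach a permutation P below 0.05. Clock had r = 0.56 (permutation P = 0.0576), Per3 0.32, Per2 0.08, Cry1 -0.05, Cry2 -0.13 and Npas2 -0.52 (11 mice). For Clock, rho was 0.35, r was 0.14 without the 2 farthest mice (permutation P = 0.703), and the second probe gave 0.27 (permutation P = 0.391). The Cry2 value depended on the background correction, with r = 0.55 after plain subtraction. In all, 4 of the 10 genes had a permutation P below 0.05, each with a positive r. Among probes well above background on all 24 arrays, where r had a median of 0.16, 7.41% of 9014 had such a P and 6.3% also had a positive r. Among those well above background on at least 12 arrays, to which 7 of the members and all 4 of these genes belonged, it was 6.69% of 16536, and 5.56% with a positive r. After Benjamini-Hochberg adjustment over either set no probe passed, the smallest adjusted P being 0.421 and 0.588, and Dbp stood at 0.555 and 0.588. By size of r, Dbp was number 11 of 9014 probes. Liver and colon of a mouse shared a slide, and with values centred on slides r was 0.95 for Dbp (exact permutation P = 0.000825), 0.75 for Per1 (0.0496), 0.71 for Arntl (0.0843) and 0.61 for Nr1d1 (0.142).

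**Figure D3:**
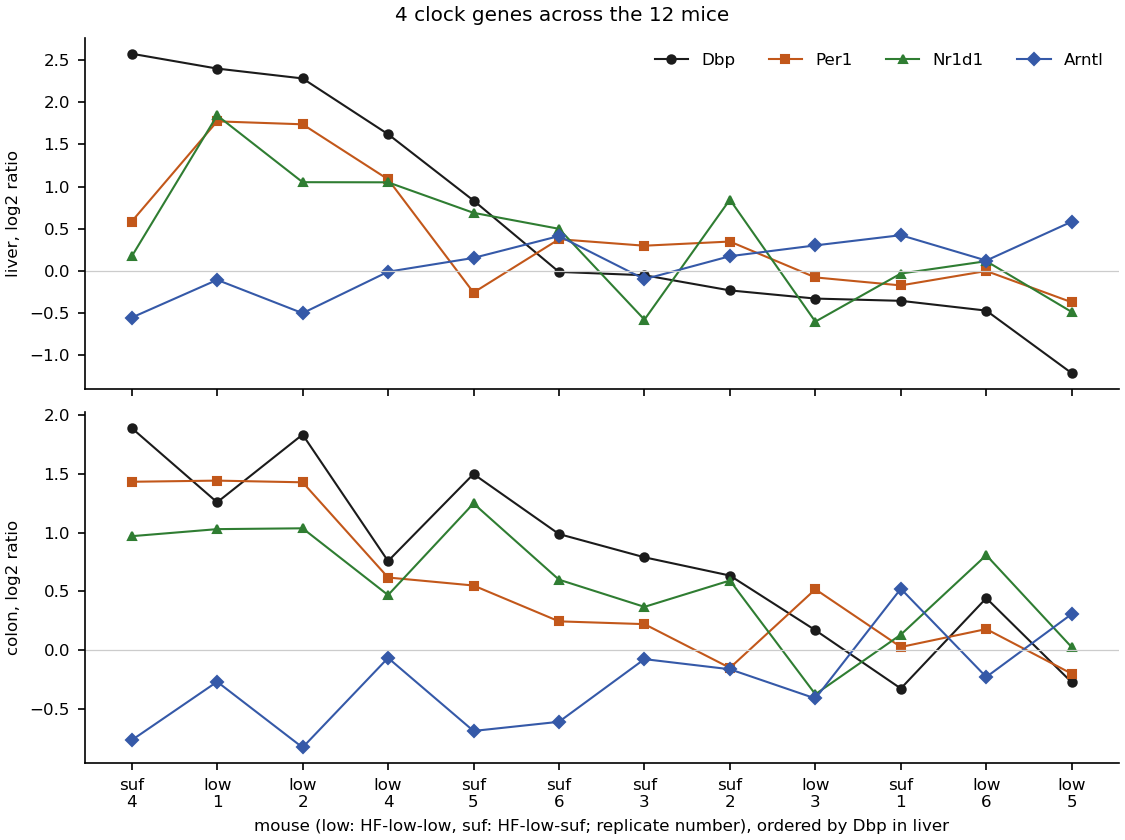
Log2 ratio (y axis) of Dbp, Per1, Nr1d1 and Arntl in liver (top) and colon (bottom) of each of the 12 mice, ordered along the x axis from the highest to the lowest Dbp in liver. The 4 mice on the left, with liver Dbp from 1.62 to 2.58, had colon Per1 from 0.62 to 1.44 and Arntl at or below 0 in both tissues. Colon Arntl was below 0 in most of the other mice too.

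The diets were also compared slide by slide. Each slide held 1 HF-low-low and 1 HF-low-suf mouse, so that anything common to a slide drops out of their difference. For Dbp, HF-low-suf minus HF-low-low was -2.75 in liver and -1.58 in colon on slide 1, and -2.51 and -1.20 on slide 2. On slide 3 it was 0.28 and 0.62, on slide 4 0.95 and 1.13, on slide 5 2.05 and 1.77, and on slide 6 0.46 and 0.54. The sign was the same in both tissues on all 6 slides, and r over the slides was 0.997 (exact permutation P = 0.00278, two-sided).

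Of the 9014 probes well above background on all 24 arrays, for which this r had a median of 0.24, Dbp ranked number 1, and it ranked number 1 also among the 16536 of the wider set. The r of Dbp rests on 6 slides and 720 permutations, and its P is not adjusted over these probes, so the rank is descriptive. Clock followed among the members with 0.86 (exact permutation P = 0.0306), then Per1 with 0.73 (exact P = 0.118), Arntl with 0.71 (exact P = 0.117) and Nr1d1 with 0.69 (exact P = 0.128). The second Clock probe, above background on 12 colon and 7 liver arrays, gave 0.42 (exact P = 0.399). Per2, Cry1, Per3 and Cry2 lay between -0.17 and 0.14, and Npas2, with 5 slides, at -0.35. For Per1, the difference was -1.94 in liver and -1.41 in colon on slide 1 and -1.39 and -1.58 on slide 2, and it was smaller in size on the other slides. Its sign was the same in both tissues on 4 of the 6 slides, and opposed on slide 3 (0.38 and -0.30) and slide 4 (-0.50 and 0.81).

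**Figure D4:**
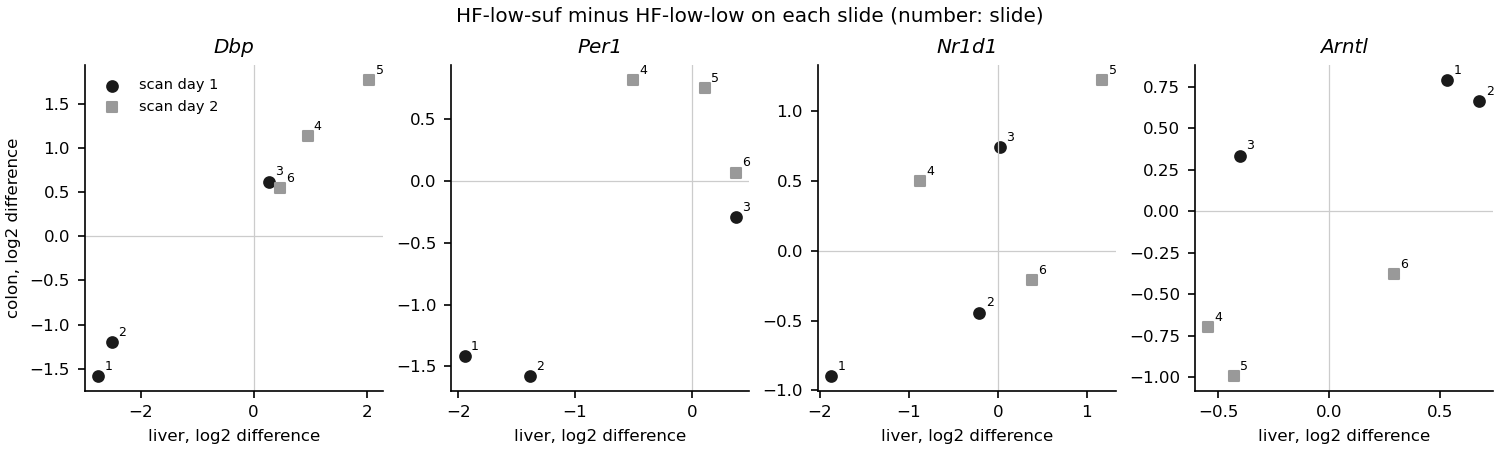
HF-low-suf minus HF-low-low log2 difference in colon (y axis) against that in liver (x axis) on each of the 6 slides for Dbp, Per1, Nr1d1 and Arntl, with black circles for the slides of scan day 1, grey squares for scan day 2 and the slide number beside each point. For Dbp the points lie near a line with r = 0.997, and slides 1 and 2 have the opposite sign to the other 4.

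The sign of the diet difference was not the same on all slides. On slides 1 to 3, Dbp differed by -1.66 ± 0.66 in liver and -0.72 ± 0.43 in colon. On slides 4 to 6 it differed by 1.15 ± 0.88 in liver and 1.15 ± 0.30 in colon. Per1 in colon was -1.10 ± 0.29 on slides 1 to 3 and 0.54 ± 0.31 on slides 4 to 6, and Arntl in colon was 0.60 ± 0.27 and -0.69 ± 0.21. With 3 mice against 3, the smallest P that an exact permutation test can give is 0.1. By the limma threshold above, Per1 in colon passed on slides 1 to 3, 1 of 10 genes beside 0.675% of all probes, and Dbp and Arntl in colon passed on slides 4 to 6, 2 of 10 beside 0.25%, each with the opposite sign on the other slides. In liver 0 of 10 genes passed on either set, beside 0.143% of probes on slides 1 to 3 and 0.00486% on slides 4 to 6. The difference between the slide sets was not tested.

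Within a tissue, Arntl and Dbp moved in opposite directions across mice. With values centred on the diet means, r between them was -0.85 in liver (permutation P = 0.00069, 12 mice; rho -0.75, permutation P = 0.00652) and -0.87 in colon (permutation P = 0.00067; rho -0.83, permutation P = 0.00142). Leaving out the 2 mice with Dbp farthest from the median gave -0.81 in liver (permutation P = 0.00516) and -0.75 in colon (permutation P = 0.013). With each mouse left out in turn it lay between -0.90 and -0.79 in liver and between -0.94 and -0.80 in colon. Centred on slides it was -0.85 (exact permutation P = 0.0134) and -0.91 (exact P = 0.00894).

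Some of the other members went with Dbp as well. In colon, Per1 (r = 0.87, permutation P = 0.00096) and Nr1d1 (0.82, permutation P = 0.0023) went with Dbp, while Cry2 (0.42), Per2 (0.38) and Clock (-0.05) did not pass. Of the 5 other members well above background on all 12 colon arrays, 3 had a permutation P below 0.05 with Dbp, beside 1.3% of 13794 probes, and 3 of 5 with Arntl, beside 1.02%. In liver, Arntl and Clock (r = -0.65 with Dbp, permutation P = 0.0305, and -0.61, permutation P = 0.0589, without the 2 farthest mice) were the only other members above background on all 12 arrays, and both passed, beside 8.04% of 9664 probes. With Arntl the liver background was 6.05%, and Clock went with Arntl there (0.63, permutation P = 0.0415), but at 0.22 without the 2 farthest mice. Centred on slides, Clock in liver had -0.51 with Dbp (exact permutation P = 0.237) and 0.83 with Arntl (exact P = 0.0419). Per1 and Nr1d1, above background on 9 liver arrays, again went with Dbp (0.84, permutation P = 0.00854, and 0.68, permutation P = 0.0428). Per2 in liver had r = -0.19 with Dbp and 0.21 with Arntl. Of the dim members, Npas2, above background on 1 colon array, had 0.85 with Arntl in colon (permutation P = 0.00151) and -0.74 with Dbp (permutation P = 0.01), while Per3 and Cry1 did not pass. No probe passed an adjusted P below 0.05 in any of these 4 scans, the smallest adjusted P being 0.193 in liver and 0.276 in colon.

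**Figure D5:**
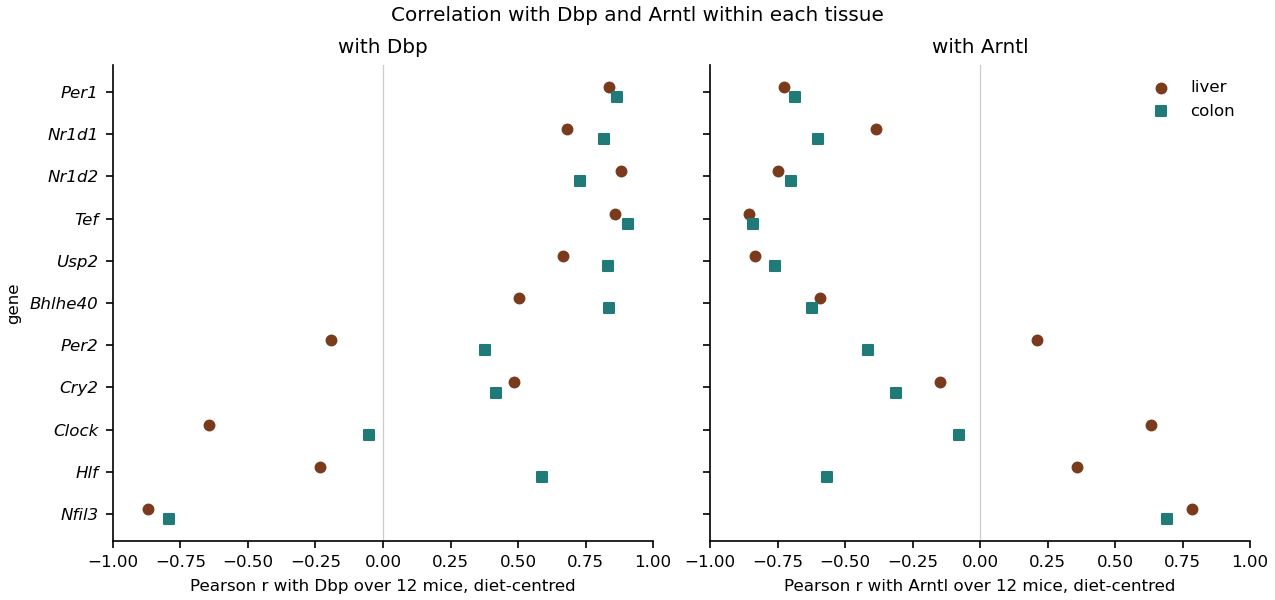
Pearson's r with Dbp (left) and with Arntl (right) over 12 mice, values centred on diet means, for 11 clock genes (y axis) in liver (circles) and colon (squares). Per1, Nr1d1, Nr1d2, Tef, Usp2 and Bhlhe40 lie above 0 with Dbp and below 0 with Arntl in both tissues, and Nfil3 lies the other way round (-0.87 and -0.79 with Dbp).

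The correlations of further clock genes, taken from a list chosen with earlier results known, were mixed. Tef, a sister gene of Dbp that binds the same D-box, had r = 0.86 with Dbp in liver (permutation P = 0.00043) and 0.91 in colon (permutation P = 0.00011), and -0.86 and -0.84 with Arntl. Nfil3 (also called E4BP4), a repressor at the D-box, had -0.87 with Dbp in liver (permutation P = 0.0002) and -0.79 in colon (permutation P = 0.0033). Nr1d2, the second REV-ERB gene, had 0.88 and 0.73, Usp2, a deubiquitinase with a clock-driven transcript, 0.67 and 0.83, and Bhlhe40 (Dec1), an E-box repressor, 0.50 and 0.84. Without the 2 mice with Dbp farthest from the median, the liver values of Usp2 (0.32, permutation P = 0.364) and Bhlhe40 (0.35, permutation P = 0.324) no longer passed. Hlf, the third gene of the Dbp family, had -0.23 in liver and 0.59 in colon, neither of which passed. Ciart, a repressor of Clock and Arntl, had 0.82 and 0.93 but was above background on only 4 liver and 2 colon arrays, and Wee1 was not above background on any.

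Counted over the lists, 4 of 11 other clock regulators and 3 of 9 clock outputs above background on all liver arrays had a permutation P below 0.05 with Dbp, beside 8.04% of probes, and 4 of 12 and 1 of 10 in colon, beside 1.3%. The liver outputs were Pck1 (r = 0.81), the rate-limiting enzyme of gluconeogenesis, Noct (0.68), the cycling gene nocturnin, and Insig2 (-0.74), a regulator of sterol synthesis. Without the 2 farthest mice Pck1 stayed at 0.75 (permutation P = 0.0134), while Noct (0.63, permutation P = 0.052) and Insig2 (-0.59, permutation P = 0.0749) no longer passed. Between the liver and the colon of a mouse, Nfil3 had r = 0.84 (permutation P = 0.00041), Usp2 0.76 (permutation P = 0.00375), Tef 0.71 (permutation P = 0.00864), Nr1d2 0.62 (permutation P = 0.0308) and Insig2 0.57 (permutation P = 0.0481). Without the 2 mice farthest from the liver median Nfil3 stayed at 0.74 (permutation P = 0.0137), whereas the other 4 lay between 0.41 and 0.55 with a permutation P above the threshold. These made 3 of 16 regulators and 2 of 12 outputs well above background on at least 12 arrays, beside 6.69% of such probes.

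The genes most like Dbp and Arntl were then taken from the whole array, 1 probe a gene. In colon, out of 10106 gene names, the 5 with the highest r with Dbp were Slc2a5 (0.94), the fructose transporter, Tef (0.91), Per1 (0.87), Sphk1 (0.87), a sphingosine kinase, and Bhlhe40 (0.84, under its older name Bhlhb2). The 5 lowest were Arntl (-0.87), Nfil3 (-0.79), Rpo1-2 (-0.79), Mst1r (-0.78) and 2610035D17Rik (-0.76). With Arntl in colon the lowest were Slc2a5 (-0.90), Dbp (-0.87), Tef (-0.84), Bdh2 (-0.81) and Qpct (-0.80), and the highest Rnf125 (0.87), Tada3l (0.76), Ddx51 (0.74), Hspa1a (0.73) and Egr1 (0.71).

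In liver the ranking covered 7421 gene names and left out Per1, Nr1d1 and Nr1d2, which were not above background on every liver array. The highest with Dbp were Erf (0.93), an ETS repressor, Sgk2 (0.91), Dexi (0.91), Grb2 (0.89) and Mcm10 (0.89), and the lowest Clpx (-0.89), Ppp1r3c (-0.89), a glycogen-targeting phosphatase subunit, Ddx51 (-0.88), Cycs (-0.88) and Nfil3 (-0.87). The highest with Arntl were Eif2b4 (0.92), Bxdc5 (0.91), Irak2 (0.88), Prkcn (0.86) and Ppp1r3c (0.86), and among the lowest were Mfsd2 (-0.93), Dexi (-0.90), Rpl22l1 (-0.89) and 1500032L24Rik (-0.88). Since Arntl and Dbp were themselves opposed, a gene can appear on both lists. All these names come from a ranking of every gene measured over 12 mice, in which none passed after adjustment.

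Other clock genes were compared between the tissues and the diets as well. Of 22 further regulators, 8 passed between liver and colon, 4 higher in each tissue, beside the 11.4% of probes higher in liver and 12.2% higher in colon. Among those higher in liver were Hlf (log2 difference 2.39 ± 0.17), Rora (1.86 ± 0.12) and Nfil3 (1.62 ± 0.18). Among those higher in colon were Ppargc1a, a coactivator of Arntl transcription (-1.08 ± 0.16), Csnk1e, a kinase of the PER proteins (-0.88 ± 0.13), and Nono (-0.70 ± 0.10). Of 14 outputs, 10 passed, beside 23.6% of probes, 8 of them higher in liver, among them Gys2, the liver glycogen synthase (6.03 ± 0.10), Pck1 (2.93 ± 0.31) and Insig2 (2.90 ± 0.11). Alas1 (2.50 ± 0.14), Tsc22d3 (1.30 ± 0.14) and Por (1.22 ± 0.075) were higher in liver too. So were Cyp7a1, the rate-limiting enzyme of bile acid synthesis, and Elovl3, a fatty acid elongase, but neither was well above background in any colon, so no size is given. In turn, Cdkn1a (-1.14 ± 0.21) and Fkbp5 (-0.87 ± 0.13) were higher in colon. The outputs list holds several enzymes of liver metabolism, so nothing particular to clock outputs is read from its count.

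Between the diets none of the 22 regulators and 14 outputs, each read from 1 probe, passed in either tissue. The paper lists a different Rora probe as lower in HF-low-suf colon by its own threshold. The Rora probe read here differed by 0.18 in colon, in the opposite direction. The result of the paper's Rora probe is not reported here. Among the named regulators the differences in liver were -0.12 for Nr1d2, -0.03 for Tef, -0.22 for Hlf, 0.19 for Nfil3 and -0.48 for Bhlhe40, and in colon -0.07, 0.25, -0.13, -0.22 and 0.09. The genes with an unadjusted P below 0.05 were Ciart (-0.96) and Tsc22d3 (-0.56) in liver and Gys2 in colon (-0.44), and Tsc22d3 and Gys2 were below the 1.5-fold threshold.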

How the data were processed

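Liver and colon RNA of 12 mice was measured on 24 Agilent 2-colour arrays, with the sample in Cy3 and the reference pool in Cy5. The deposited files hold Feature Extraction spot intensities, not yet normalized between dyes. Mean and background intensity were corrected with normexp (offset 50) and loess in limma 3.58.1 (R 4.3.3), control and outlier spots being left out, and log2 ratios of repeated spots were averaged to 41174 probes. Tissues were compared with the mouse as a random block, diets within each tissue, with Benjamini-Hochberg adjustment over all probes. A tissue difference passed at adjusted P under 0.05 and 1.5-fold, a diet difference at P under 0.01 and 1.5-fold. Exact permutation tests and correlations (100000 permutations, NumPy 2.4.6, SciPy 1.17.1) used the mouse as replicate. The fit was tested on simulated data. The precision of each value is limited by the number of arrays. The members and lists were chosen with earlier results of these data known. Named were all members, list genes that passed or had been listed by name, and the 5 genes most and least alike to Arntl and Dbp, of which some are not reported here. Alternatives covered background correction, normalization, the reference channel, dim probes, outlier spots, blocks, scan days and each mouse left out.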

Additional observations from a re-analysis of the deposited data

Results flagged for a closer look

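Of 40 groups of a gene, tissue and diet, 4 held a value whose gap to the nearest of the others was large for the range of its group, which chance gives in about 1 in 20 groups. Npas2 in liver HF-low-suf replicate 1 was -2.25, with the nearest value at -0.47. Per2 in colon HF-low-suf replicate 4 was 0.93, with the nearest at 0.34. Per3 was -1.71 in liver HF-low-low replicate 3 (nearest -0.31) and -0.91 in liver HF-low-suf replicate 6 (nearest -0.28). The Npas2 and Per3 values lay on arrays where the probe was not well above background. The effect of the diet on Cry2 differed between liver and colon by -0.54 (adjusted P = 0.754, limma; exact permutation P = 0.0714), with an unadjusted P below 0.05.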

How the results depend on the processing

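Between liver and colon, 1 clock gene passed in place of 2 with no background correction, with median centring, with Cy3 alone and without the 2 arrays with a bright reference, and 1 to 2 with each mouse left out, Cry1 being the gene lost. With only brighter probes 1 of the 7 genes tested passed, Cry1 not being tested. With processed signals 3 passed, Cry2 being the gene gained. In colon, 1 gene passed between the diets within scan day 1 (278 of all probes) and 2 within scan day 2 (103), and 0 with each mouse left out. In liver 0 passed under every alternative run. For the difference between the diet effects 0 to 1 passed with a mouse left out. The count of genes with a liver to colon P below 0.05 was 3 to 5, also with each mouse left out.

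The sign of a value turned under the alternatives below, and no diet difference among them had passed. Within scan day 1 it turned between diets in liver for Clock (0.034), and between diets in colon for Arntl (0.60), Per2 (-0.44), Cry2 (-0.065), Nr1d1 (-0.20) and Dbp (-0.72). Within scan day 2 it turned between diets in liver for Arntl (-0.23), Nr1d1 (0.23) and Dbp (1.15), and between diets in colon for Clock (0.0098), Per1 (0.54) and Cry1 (-0.10). With plain subtraction it turned between diets in liver for Arntl (-0.050), and in the difference between the diet effects for Clock (-0.011), and in the liver to colon r for Cry2 (0.55). With no background correction it turned between diets in liver for Arntl (-0.050), and in the difference between the diet effects for Arntl (-0.00093) and Clock (-0.0037), and in the liver to colon r for Cry2 (0.58). With processed signals it turned between liver and colon for Per3 (0.055), and between diets in liver for Arntl (-0.046), and in the difference between the diet effects for Arntl (-0.036) and Clock (-0.054), and in the liver to colon r for Npas2 (0.16) and Cry2 (0.52). With median centring it turned between liver and colon for Arntl (-0.077), and between diets in liver for Clock (0.081), and between diets in colon for Arntl (0.11) and Clock (0.11), and in the difference between the diet effects for Arntl (-0.026) and Clock (-0.027), and in the liver to colon r for Per2 (-0.020) and Cry2 (0.35). With Cy3 alone it turned between liver and colon for Per3 (0.029), and between diets in colon for Arntl (0.024) and Per2 (-0.0013). Without the 2 bright-reference arrays or mice it turned between diets in liver for Clock (0.084), and between diets in colon for Arntl (0.031), and in the liver to colon r for Cry2 (0.20). Centred on diet means it turned in the liver to colon r for Cry2 (0.026). Centred on slides (the replicate block) it turned in the liver to colon r for Per3 (-0.025). With each mouse left out in turn, signs turned between liver and colon for Per3 (-0.11 to 0.087) and Npas2 (-0.34 to 0.084), between diets in liver for Arntl (-0.093 to 0.15), Clock (-0.070 to 0.092), Nr1d1 (-0.45 to 0.040) and Dbp (-0.68 to 0.082), between diets in colon for Clock (-0.15 to 0.011), Nr1d1 (-0.022 to 0.26), Per2 (-0.017 to 0.21) and Arntl (-0.21 to 0.064), in the difference between the diet effects for Clock (-0.042 to 0.11) and Arntl (-0.060 to 0.16), in the liver to colon r for Per2 (-0.047 to 0.35), Cry1 (-0.23 to 0.23), Cry2 (-0.40 to 0.12) and Npas2 (-0.87 to 0.092). Values of Npas2, Per3 and Cry1 come from probes not well above background on most arrays, and the diet differences of Npas2 and Per3, which were not well above background on any HF-low-low array, were left out. The cause was not tested.

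Replicate numbers are slide numbers, and the diets on 1 slide did not deviate together on every slide (r from -0.06 to 0.78 in liver and -0.38 to 0.53 in colon). With the replicate block, 0 clock genes passed between the diets in liver and in colon, while 131 of all probes passed in liver (48 without it) and 92 in colon (69). Over all alternatives 2 to 304 probes passed in liver, 3 to 278 in colon and 29 to 933 for the difference between the effects. The r of Arntl with Dbp was -0.90 to -0.79 in liver and -0.94 to -0.80 in colon with each mouse left out, and centred on slides, chosen after seeing the data, -0.85 and -0.91.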
